A study of Mus musculus with 7 samples.

Results

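A set of 10 genes that load and display peptides on MHC class I were read across all libraries of a mouse heart experiment. They encode class I heavy chains (H2-K1, H2-D1, H2-T23 and H2-Q8), the light chain (B2m), peptide transport and loading (Tap1 and Tapbp) and the inducible catalytic subunits of the immunoproteasome (Psmb8, Psmb9 and Psmb10). The genes were taken by symbol for their roles in the pathway, and all 10 were found among the 17404 genes of the expression table. All 10 also passed the filter on low values, a mean of at least 0.5 over the 7 libraries, as did 12715 genes in all. H2-Q8, the lowest of them, had a mean of 1.79 over the 7 libraries.

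RNA came from whole ventricles of neonatal mice at postnatal day 4, with 3 to 4 hearts pooled for each library, from 3 BALB/cByJ pools and 4 BALB/cJ pools. This number of hearts is that of the paper's Methods, and its Results section gives another range. The mice had no treatment, and the sex of the pups is not given in the labels. These inbred substrains descend from 1 BALB stock. BALB/cByJ carries a deletion that removes most of the coding sequence of Cyth1, a gene for an exchange factor of ARF GTPases, whereas BALB/cJ carries a retroviral insertion in Zhx2, which encodes a zinc finger and homeobox protein.

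Class I molecules consist of a polymorphic heavy chain held together with beta-2 microglobulin, and they show short peptides from inside the cell to CD8 T cells. Proteasomes cut the peptides, the TAP transporter carries them into the endoplasmic reticulum, and tapasin helps to fit them into the heavy chain. Under interferon, cells exchange the catalytic subunits of the proteasome for the immunoproteasome subunits and raise most genes of the pathway together. In the heart, endothelial cells and resident leukocytes are known to carry more class I than cardiomyocytes do.

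Cyth1 served as a check of the strain labels, with values of 0.1 to 0.19 in BALB/cByJ and 25.77 to 26.98 in BALB/cJ. The 10 cardiomyocyte markers, among them Myh6 and Tnnt2, were all at 1 or more in every library. The libraries also differed in their makeup. The summed value of 4 Y-linked genes, transcribed in males, lay between 80.2 and 128 in BALB/cByJ and between 0.04 and 37.6 in BALB/cJ. The summed value of 12 T cell and thymocyte markers lay between 0.92 and 1.18 in BALB/cByJ, and was 2.25, 0.96, 18.61 and 6.45 in BALB/cJ 1 to 4, so that BALB/cJ 3 and BALB/cJ 4 stood apart. All values are the deposited normalized expression values. Whether they are FPKM or TPM is not stated, and levels and ratios of different genes are given on the reading that transcript length was scaled out. In whole tissue, fewer cells of a type and less RNA per cell cannot be told apart.

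The promoters are shown first because interferon and NF-kappaB elements ahead of these genes are known to drive the pathway. RefSeq gives a start site window, 250 bases before to 50 bases after the start, for 9 of the 10 genes on GRCm38.p6, and none for H2-Q8. For H2-K1 it lists 2 windows, of which the first was used, and this one lies inside the annotated span of the gene. The sequences are those of the reference genome, which comes from C57BL/6J and its b haplotype of H2, and were not read from either BALB strain, which carry the d haplotype. H2-K1 (chr17:34000298-34000597, minus strand) and H2-D1 (chr17:35262844-35263143, plus strand) are the classical heavy chains, B2m (chr2:122147437-122147736, plus strand) is the light chain, and Tapbp (chr17:33919228-33919527, plus strand) and Psmb10 (chr8:105938343-105938642, minus strand) are the genes with all BALB/cByJ values below those of BALB/cJ. Capitals mark the matches to the motifs described after the sequences.
H2-K1: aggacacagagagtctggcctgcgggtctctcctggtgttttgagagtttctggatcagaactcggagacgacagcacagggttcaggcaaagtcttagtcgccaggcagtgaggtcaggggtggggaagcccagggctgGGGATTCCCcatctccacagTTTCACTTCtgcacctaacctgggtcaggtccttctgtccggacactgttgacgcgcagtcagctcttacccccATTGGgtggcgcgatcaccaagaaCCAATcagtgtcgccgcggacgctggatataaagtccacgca
H2-D1: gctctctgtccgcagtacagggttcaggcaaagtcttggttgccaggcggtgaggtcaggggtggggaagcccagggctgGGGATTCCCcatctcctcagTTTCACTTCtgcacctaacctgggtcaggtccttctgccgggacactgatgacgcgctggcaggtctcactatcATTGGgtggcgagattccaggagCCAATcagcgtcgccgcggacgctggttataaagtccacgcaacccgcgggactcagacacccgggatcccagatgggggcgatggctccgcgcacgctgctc
B2m: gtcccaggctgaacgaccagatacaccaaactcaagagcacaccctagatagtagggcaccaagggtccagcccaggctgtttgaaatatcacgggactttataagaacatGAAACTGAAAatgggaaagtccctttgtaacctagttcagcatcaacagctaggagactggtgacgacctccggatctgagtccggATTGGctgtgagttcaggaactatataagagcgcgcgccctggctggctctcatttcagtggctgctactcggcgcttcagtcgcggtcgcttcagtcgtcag
Tapbp: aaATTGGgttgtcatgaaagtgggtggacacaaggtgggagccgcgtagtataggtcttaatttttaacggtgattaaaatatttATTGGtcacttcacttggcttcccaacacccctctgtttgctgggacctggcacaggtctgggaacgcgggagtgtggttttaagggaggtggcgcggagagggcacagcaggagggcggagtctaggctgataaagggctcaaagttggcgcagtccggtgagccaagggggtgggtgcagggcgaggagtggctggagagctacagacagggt
Psmb10: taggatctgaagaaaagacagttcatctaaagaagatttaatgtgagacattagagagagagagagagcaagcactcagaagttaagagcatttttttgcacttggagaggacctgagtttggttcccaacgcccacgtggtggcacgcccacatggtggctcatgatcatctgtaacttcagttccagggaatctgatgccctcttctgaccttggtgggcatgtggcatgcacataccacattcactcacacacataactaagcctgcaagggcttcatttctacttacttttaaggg

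The 5 motifs were searched on both strands in the first listed window of each of 27025 genes. Of the NF-kappaB site only the exact letters GGGATTCCC were searched, and other forms of it can lie unmarked in these windows. GGGATTCCC was present in 100 windows (0.37%). The heavy chain genes H2-K1, H2-D1, H2-Q6 and H2-Q7 were among them, and so was Irf1, a transcription factor of the interferon response. In both H2-K1 and H2-D1 a pair of interferon regulatory factor half-sites, GAANNGAAA read on the reverse strand as TTTCACTTC, began 20 bases after the start of that site, and a reverse CCAAT box began 94 bases after it.

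The half-site pair GAANNGAAA was found in 7.56% of all windows and, among the 9 genes with a window, in H2-K1 and H2-D1 only. The longer core of the interferon-stimulated response element, GAAA followed by any 2 bases and GAAA, was found in 3.49% of all windows and, among the 9, in B2m as GAAACTGAAA and in H2-T23 as TTTCTCTTTC. The gamma-activated site TTCNNNGAA, with a background of 8.47%, was present in Psmb8 only. The CCAAT box was present in 7 of the 9 windows, against 37.9% of all windows, and was missing from those of Psmb8 and Psmb10. In Tapbp it was the only motif found and occurred at 2 places. In the Psmb10 window none of the 5 motifs occurred. A match is a description of letters and not of a bound site.

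Of the 10 genes, 6 lie in the H2 region of chromosome 17, between 33974659 and 37480851 of GRCm38.p6, and Tapbp lies just outside it at 33919478 to 33929290. H2-K1 (33996012 to 34000619, minus strand) lies near its start, and H2-D1 (35263094 to 35267497, plus strand) and H2-T23 (36029977 to 36032701, minus strand) lie farther in. Psmb9 (34182030 to 34187330, minus strand) and Tap1 (34187556 to 34197225, plus strand) are transcribed away from each other with 225 bases between them. Psmb8 (34198195 to 34201454, plus strand) starts 969 bases after the end of Tap1. The CCAAT box of the Tap1 window and that of the Psmb9 window are the same bases, read on opposite strands. B2m is on chromosome 2 (122147687 to 122153082) and Psmb10 on chromosome 8 (105935728 to 105938392). RefSeq lists H2-Q8 for chromosome 17 on another sequence than the chromosome itself, so no coordinates are given for it.

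In P4 ventricle the calls between the strains fell on single genes of the pathway. H2-Q8 was higher in BALB/cByJ, Psmb10 was lower, and the other 8 genes were not called. Tapbp, which did not pass, had all BALB/cByJ values below all BALB/cJ values. Calls rest on limma, run on log2(value + 1) for all 12715 genes, with an adjusted p under 0.05. Of all genes tested, 0.771% were called higher and 0.881% lower in BALB/cByJ, together 210 genes (1.65%). For the members this made 1 of 10 higher and 1 of 10 lower. The members were chosen with earlier results of these data known, so these counts are not a test against those shares. The median log2 fold change was 0.01 over the 10 genes and -0.07 over all genes tested. A positive fold change stands for more transcript in BALB/cByJ. Because 1 was added before the logarithm, the fold changes of weakly expressed genes come out too small. Errors beside means are SDs over the 3 BALB/cByJ and the 4 BALB/cJ pools. P-values set the strain difference against the spread between pools, which limma draws toward a trend over all genes tested. The labels do not say how pups were assigned to the pools. The calls of all genes split into 98 higher and 112 lower on the values as deposited, into 108 and 49 after quantile normalization, and into 135 and 60 after scaling by a trimmed mean of log ratios.

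**Figure D1:**
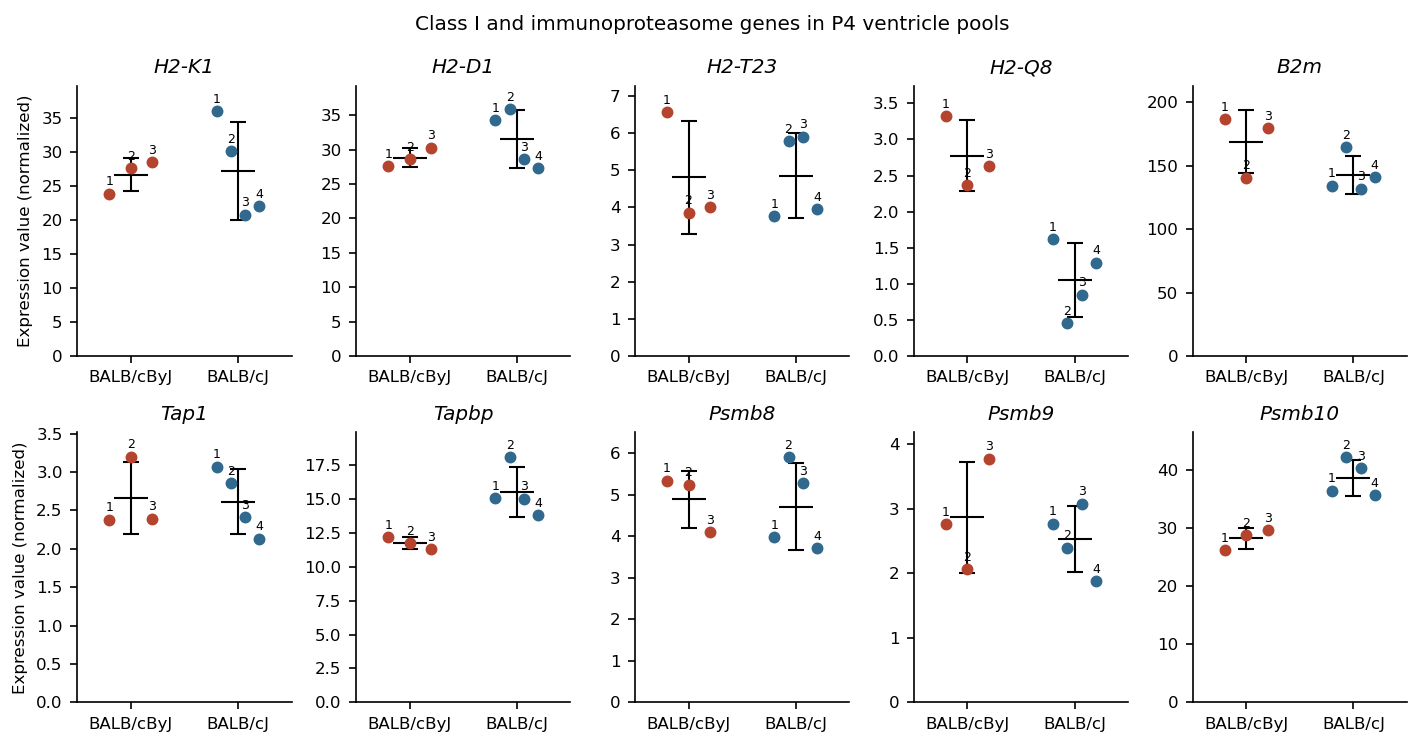
Expression values of the 10 genes by library (y axis, normalized, from 0), with BALB/cByJ on the left and BALB/cJ on the right of each panel. Points are libraries with their replicate numbers, and the bars give the mean and SD. The points of the strains separate for H2-Q8, Tapbp and Psmb10 and overlap for the other 7 genes.

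The levels of the 10 genes spanned a wide range. B2m was the highest, at a mean of 154 over the 7 libraries, and lay above the next gene in each of the 7 libraries. Psmb10 (34.2), H2-D1 (30.4) and H2-K1 (27.0) followed, and the ranges of neighbors among these overlapped. Tapbp (13.9) lay below every value of H2-K1 and above every value of H2-T23 (4.83) and Psmb8 (4.80). H2-T23 and Psmb8 overlapped, and the lowest Psmb8 value (3.71) lay just under the highest Psmb9 value (3.78). Psmb9 (2.68), Tap1 (2.63) and H2-Q8 (1.79) were the lowest, and their ranges overlapped from each to the next.

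The classical heavy chains H2-K1 and H2-D1, which present most peptides to CD8 T cells, had overlapping ranges in the strains and were not called. H2-K1 was at 23.86, 27.63 and 28.5 in BALB/cByJ 1 to 3 and at 35.95, 30.11, 20.75 and 21.97 in BALB/cJ 1 to 4. The BALB/cByJ values fell inside the BALB/cJ range, where BALB/cJ 1 was the highest and BALB/cJ 3 the lowest. The strain means were 26.7 ± 2.47 for BALB/cByJ against 27.2 ± 7.16 for BALB/cJ. On the log2 scale the strains differed by 0.0031 (standard error 0.16, 95% interval -0.34 to 0.34, limma adjusted p = 0.993). Without BALB/cJ 3 and BALB/cJ 4, the pools with the highest T cell marker sums, the log2 fold change was -0.30 (limma adjusted p = 0.427), and with the Y-linked level as a covariate it was 0.44 (limma adjusted p = 0.210).

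H2-D1 was at 27.62, 28.62 and 30.26 in BALB/cByJ and at 34.24, 35.9, 28.63 and 27.26 in BALB/cJ. The BALB/cByJ libraries lay within the range of BALB/cJ, in which BALB/cJ 1 and 2 were above BALB/cJ 3 and 4 as they were for H2-K1. This was a log2 fold change of -0.12 (standard error 0.11, 95% interval -0.36 to 0.12, limma adjusted p = 0.609). The sum of H2-K1 and H2-D1 was 55.5 ± 3.70 in BALB/cByJ and 58.7 ± 11.0 in BALB/cJ, with overlapping ranges.

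H2-T23 encodes Qa-1, a nonclassical heavy chain that shows leader peptides of other class I chains to NKG2 receptors. It was at 6.57, 3.86 and 4 in BALB/cByJ and at 3.77, 5.78, 5.91 and 3.95 in BALB/cJ. High and low libraries occurred in both strains, and the ranges overlapped. The fitted log2 fold change was -0.02 (standard error 0.17, 95% interval -0.39 to 0.35, limma adjusted p = 0.963). H2-T23 overlaps A930015D03Rik in the annotation, and the sources used here do not state whether reads were counted by strand.

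H2-Q8 is 1 of the 4 neighboring genes H2-Q6 to H2-Q9, whose products make up Qa-2, a nonclassical molecule known to vary between inbred strains. It was at 3.32, 2.37 and 2.63 in BALB/cByJ and at 1.62, 0.45, 0.85 and 1.29 in BALB/cJ. Every BALB/cByJ library lay above every BALB/cJ library, as it did for 4.33% of all genes tested. The strain means were 2.77 ± 0.491 for BALB/cByJ against 1.05 ± 0.511 for BALB/cJ, a ratio of 2.63. The strains thus differed by 0.91 on the log2(value + 1) scale (standard error 0.18, 95% interval 0.53 to 1.28, limma adjusted p = 0.0202). The call was lost without BALB/cByJ 1 (0.80, limma adjusted p = 0.114), without BALB/cByJ 3 (0.93, limma adjusted p = 0.0896), and without BALB/cJ 3 and BALB/cJ 4 together (0.95, limma adjusted p = 0.0976). When the Y-linked sum entered the model, the difference was 1.14 (limma adjusted p = 0.0734), and with no filter on low values the adjusted p from limma was 0.118. Relative to the classical chains, H2-Q8 amounted to 5.05% ± 1.22 of the H2-K1 and H2-D1 sum in BALB/cByJ and to 1.83% ± 0.853 in BALB/cJ, without overlap.

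H2-Q7, a closely related neighbor, did not follow H2-Q8. It was at 0.88, 0.45 and 0.52 in BALB/cByJ and at 2.49, 1.87, 0.86 and 0.58 in BALB/cJ. The strains overlapped, with BALB/cJ 1 and 2 the highest, and the log2 fold change was -0.54 (limma adjusted p = 0.216). Without BALB/cJ 3 and BALB/cJ 4, H2-Q7 was called lower in BALB/cByJ, at -0.98 (limma adjusted p = 0.0193). H2-Q6 and H2-Q9 were below the filter and were listed at 0 in several libraries. H2-Q6 was above 0 in BALB/cByJ 2 (1.27) and BALB/cJ 1 (0.37) alone, and H2-Q9 was at 0.23, 0.78 and 0.44 in BALB/cByJ and at 0, 0, 0.68 and 0 in BALB/cJ.

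Summed over H2-Q6 to H2-Q9, an addition made after the data were seen, the value was 4.43, 4.87 and 3.59 in BALB/cByJ and 4.48, 2.32, 2.39 and 1.87 in BALB/cJ. The sums overlapped through BALB/cJ 1, and the log2 fold change of the sum was 0.53 (standard error 0.18, 95% interval 0.14 to 0.92, limma adjusted p = 0.149). H2-Q8 made up 65.6% ± 14.7 of the sum in BALB/cByJ and 40.0% ± 20.8 in BALB/cJ. Of the 50-base windows of H2-Q7 transcripts in GENCODE, 20.8% occurred in transcripts of another gene, most of them in H2-Q6 (13.9%). For H2-K1 and H2-D1 these shares were 10.5% and 11.2%. H2-Q8 was not matched there. Reads of these genes could be split among them in the counting, so the value of H2-Q8 alone is uncertain. The build named by the submitters, mm10, holds the b haplotype of H2, whereas both strains carry the d haplotype. How this difference bears on the values of the H2 genes was not tested.

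**Figure D2:**
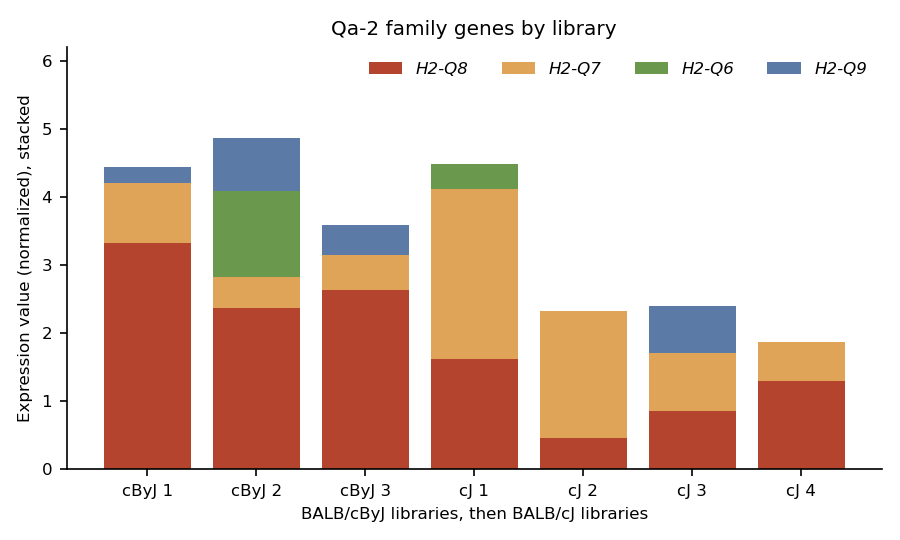
Stacked expression values (y axis, normalized, from 0) of H2-Q8, H2-Q7, H2-Q6 and H2-Q9 in each library, with the 3 BALB/cByJ libraries left of the 4 BALB/cJ libraries. H2-Q8 was larger in each BALB/cByJ library than in any BALB/cJ library, while the whole bar of BALB/cJ 1 (4.48) reached the height of those of BALB/cByJ.

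B2m encodes beta-2 microglobulin, the light chain that all of these heavy chains need to reach the cell surface. It was at 186.58, 140.61 and 179.86 in BALB/cByJ and at 134.19, 164.54, 131.87 and 141.01 in BALB/cJ. BALB/cByJ 1 and 3 were the highest libraries, but BALB/cByJ 2 lay among those of BALB/cJ, so the strains overlapped. The strain means were 169 ± 24.8 for BALB/cByJ against 143 ± 14.9 for BALB/cJ. On the log2 scale the strains differed by 0.24 (standard error 0.12, 95% interval -0.03 to 0.50, limma adjusted p = 0.324). Per unit of H2-K1 and H2-D1 together, B2m was at 3.06 ± 0.562 in BALB/cByJ and 2.48 ± 0.411 in BALB/cJ, again with overlap. B2m overlaps Patl2 in the annotation.

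Tap1, a chain of the peptide transporter, did not separate the strains. It was at 2.38, 3.2 and 2.39 in BALB/cByJ and at 3.07, 2.85, 2.41 and 2.13 in BALB/cJ. This was a log2 fold change of 0.02 (standard error 0.13, 95% interval -0.27 to 0.30, limma adjusted p = 0.960). The ranges overlapped. Its partner chain Tap2 was at 4.48 ± 1.02 in BALB/cByJ and 4.54 ± 0.870 in BALB/cJ, differing on the log2 scale by -0.02 (limma adjusted p = 0.960).

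Tapbp encodes tapasin, which bridges the transporter and the empty class I molecule and edits its peptide. It was at 12.18, 11.75 and 11.31 in BALB/cByJ and at 15.06, 18.07, 15.01 and 13.8 in BALB/cJ. Every BALB/cByJ library lay below every BALB/cJ library, as it did for 12.6% of all genes tested. The strain means were 11.7 ± 0.435 for BALB/cByJ against 15.5 ± 1.82 for BALB/cJ. The fitted log2 fold change was -0.37 (standard error 0.11, 95% interval -0.60 to -0.13), and it did not pass (limma adjusted p = 0.103). Over the 17 alternatives it stayed between -0.46 and -0.28 with an adjusted p from limma of 0.0937 to 0.277, so it was called in none of them. Tapbp overlaps Gm19412 in the annotation. Tapbpl, a relative of tapasin that also edits peptides, likewise had each BALB/cByJ value (1.86 to 2.11) below each BALB/cJ value (2.26 to 2.67), differing on the log2 scale by -0.21 (limma adjusted p = 0.342).

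Of the immunoproteasome subunits Psmb10 alone was called, and the subunits were not tested against each other. Psmb8, which replaces Psmb5, was at 5.34, 5.25 and 4.11 in BALB/cByJ and at 3.98, 5.91, 5.28 and 3.71 in BALB/cJ. The ranges overlapped, and the log2 fold change was 0.06 (standard error 0.15, 95% interval -0.26 to 0.37, limma adjusted p = 0.869). Psmb9, which replaces Psmb6, was at 2.76, 2.07 and 3.78 in BALB/cByJ and at 2.77, 2.4, 3.08 and 1.88 in BALB/cJ. BALB/cByJ 3 was the highest library and the rest were mixed, and the log2 fold change was 0.12 (standard error 0.16, 95% interval -0.22 to 0.46, limma adjusted p = 0.714).

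Psmb10, which replaces Psmb7 and lies outside the H2 region, was at 26.22, 28.73 and 29.69 in BALB/cByJ and at 36.46, 42.2, 40.27 and 35.69 in BALB/cJ. The highest BALB/cByJ library lay below the lowest BALB/cJ library, as it did for 12.6% of all genes tested. The strain means were 28.2 ± 1.79 for BALB/cByJ against 38.7 ± 3.10 for BALB/cJ, a ratio of 0.730. This was a log2 fold change of -0.44 (standard error 0.10, 95% interval -0.66 to -0.22, limma adjusted p = 0.0440). It lay between -0.48 and -0.37 over 17 alternatives, but the call was kept in 3 of them (a pseudocount of 0.1, a mean of at least 2, and without BALB/cJ 1). The call was lost in 14, with an adjusted p from limma of up to 0.2. The 14 count the fit without BALB/cJ 4 again, as the set of 6 libraries with replicate numbers 1 to 3.

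By limma, leaving out single BALB/cByJ pools ended the call of Psmb10 each time, at an adjusted p of 0.19 without pool 1, 0.0743 without pool 2 and 0.0944 without pool 3. Of the BALB/cJ pools, leaving out pool 2 (0.0901), pool 3 (0.131) or pool 4 (0.0642) ended it, and leaving out pool 1 (0.0393) did not. Leaving out BALB/cJ 3 and BALB/cJ 4 together gave a log2 fold change of -0.46 (limma adjusted p = 0.2). The Y-linked level as a covariate gave -0.47 (limma adjusted p = 0.165). Since the Y-linked sums of the strains do not overlap, strain and the share of male pups cannot be told apart in full. The summed value of 5 B cell markers, none of which was at 0 in any BALB/cJ pool and 2 of which were at 0 in BALB/cByJ 3, was 2.76, 1.36 and 1.63 in BALB/cByJ and between 2.94 and 4.48 in BALB/cJ. The leukocyte marker Ptprc was at 0.89 to 1.15 in BALB/cByJ and 1.19 to 2.60 in BALB/cJ. The summed value of the 10 cardiomyocyte markers was 50774 to 58022 in BALB/cByJ and 44338 to 49448 in BALB/cJ. Myl2, with a mean of 20184 over the 7 libraries, weighed most in this sum. Singly, 7 of the 10 markers had positive and 3 had negative fold changes, and 0 were called. Only 2 of them had every BALB/cByJ value above every BALB/cJ value, as did 4.33% of all genes tested. The B cell sum, Ptprc and the cardiomyocyte sum did not overlap between the strains. Their part in the differences of H2-Q8, Psmb10 and Tapbp was not tested. The 10 macrophage markers summed to between 87.5 and 104 in BALB/cByJ and between 78.8 and 112 in BALB/cJ, and the 8 endothelial markers to between 360 and 382 in BALB/cByJ and between 346 and 407 in BALB/cJ. Both of these sums overlapped between the strains. Singly, 2 of the 10 macrophage markers had every BALB/cByJ value below every BALB/cJ value, as did 12.6% of all genes tested. They were Csf1r (3.39 to 5.67 against 6.96 to 7.74) and Adgre1 (1.17 to 1.78 against 1.98 to 2.15). Of the 10 macrophage markers, 5 had positive and 5 had negative fold changes, and 0 were called.

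The ratio of each inducible subunit to the constitutive subunit it replaces was taken within each library. Psmb10 amounted to 9.65%, 12.9% and 11.0% of Psmb7 in BALB/cByJ and to 17.1%, 17.5%, 18.9% and 16.95% in BALB/cJ, without overlap. Psmb8 amounted to 3.66% ± 0.957 of Psmb5 in BALB/cByJ and 3.87% ± 0.612 in BALB/cJ, and Psmb9 to 1.73% ± 0.304 of Psmb6 in BALB/cByJ and 1.64% ± 0.393 in BALB/cJ. Both of these overlapped between the strains. In every library each inducible subunit thus stood at 18.9% or less of its constitutive counterpart.

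Psmb10 made up 78.4% ± 1.74 of the summed value of the 3 inducible subunits in BALB/cByJ and 84.3% ± 1.58 in BALB/cJ, again without overlap. The constitutive subunits themselves were not called. Psmb7 differed on the log2 scale by 0.21 (limma adjusted p = 0.331), Psmb5 by 0.17 (limma adjusted p = 0.440) and Psmb6 by 0.06 (limma adjusted p = 0.802).

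**Figure D3:**
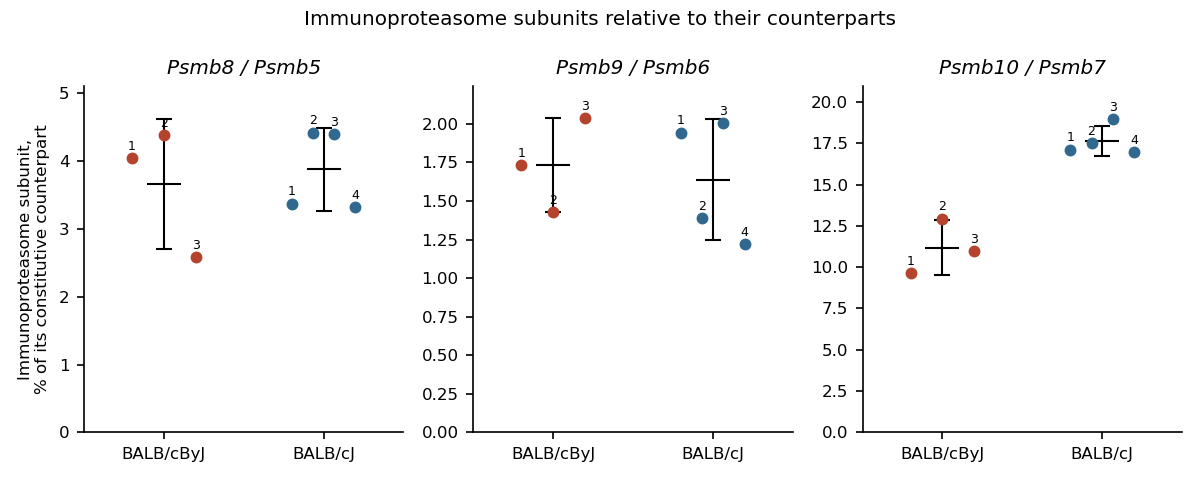
Value of each immunoproteasome subunit as a percent of the constitutive subunit it replaces (y axis, from 0), by library, with BALB/cByJ left of BALB/cJ. Points are libraries with their replicate numbers, and the bars give the mean and SD. The strains separate for Psmb10 over Psmb7, at 9.65% to 12.9% in BALB/cByJ and 16.95% to 18.9% in BALB/cJ, and overlap for the other pairs.

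The genes around the members were taken from lists of the same pathway. Of 79 listed genes, 69 were in the table and 54 were tested. By limma 0 of the 54 were called in either direction, and 10 of them (18.5%) had an unadjusted p under 0.05, against 18.3% of all genes tested. Among the 10 tested members 3 had such a p. Of the 54 genes, 2 had every BALB/cByJ value above every BALB/cJ value, and 8 had every value below. Over all genes tested these shares were 4.33% and 12.6%.

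Of 10 other tested class I genes, 4 had positive and 6 had negative fold changes, with a median of -0.06. H2-T24, a nonclassical heavy chain gene, was at 3.82, 3.94 and 2.99 in BALB/cByJ and at 2.3, 2.01, 2.73 and 2.37 in BALB/cJ. All BALB/cByJ values lay above those of BALB/cJ, as in 4.33% of all genes tested. The log2 fold change of 0.45 did not pass (standard error 0.12, limma adjusted p = 0.0857). After quantile normalization H2-T24 was called (0.53, limma adjusted p = 0.0453). Mr1, which presents vitamin B metabolites to MAIT cells, differed on the log2 scale by 0.22 (limma adjusted p = 0.312).

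The peptide loading list, with the chaperones of the endoplasmic reticulum and the trimming peptidases, had a median log2 fold change of -0.005 over 10 genes and 0 genes with an unadjusted p under 0.05 from limma. Calr, the chaperone calreticulin, was at -0.17 (limma adjusted p = 0.462), and Erap1, which trims peptides, at 0.18 (limma adjusted p = 0.463). Of the proteasome activators and their relatives, Psme1 and Psme2 encode the interferon-inducible PA28 cap and had log2 fold changes of 0.19 (limma adjusted p = 0.333) and 0.11 (limma adjusted p = 0.673). Psme3, the nuclear PA28 gamma, was at -0.21 (limma adjusted p = 0.305), Psme4, the PA200 activator, at -0.05 (limma adjusted p = 0.841) and the assembly factor Pomp at 0.13 (limma adjusted p = 0.617).

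Among the transcription factors and coactivators of class I genes, 14 were tested and 4 had an unadjusted p under 0.05 from limma, with a median log2 fold change of -0.09. Rfx5 and Rfxap encode subunits of the RFX complex, which binds class I and class II promoters. Rfx5 was at 3.39 to 3.81 in BALB/cByJ and 4.61 to 4.99 in BALB/cJ, and was not called (-0.33, limma adjusted p = 0.123). Rfxap was at 7.61 to 8.8 in BALB/cByJ and 9.92 to 11.31 in BALB/cJ, and was not called either (-0.29, limma adjusted p = 0.165). Neither gene overlapped between the strains, with BALB/cByJ below, as in 12.6% of all genes tested. Irf2, a factor that binds interferon response elements, was at 7.61 to 7.77 in BALB/cByJ and 9.13 to 10.05 in BALB/cJ, differing on the log2 scale by -0.30 (limma adjusted p = 0.138). Nlrc5, the class I transactivator, lay under the filter, at 0.087 ± 0.055 in BALB/cByJ and 0.09 ± 0.044 in BALB/cJ.

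Irf9, a subunit of the factor that carries type I interferon signals, was at 8.19, 14.63 and 14.16 in BALB/cByJ and at 8.53, 9.21, 9.24 and 8.95 in BALB/cJ. BALB/cByJ 2 and 3 were above all other libraries, whereas BALB/cByJ 1 was the lowest. On the log2 scale the strains differed by 0.38 (limma adjusted p = 0.216), and without BALB/cByJ 1 it was 0.63 and called (limma adjusted p = 0.0251).

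Of 8 genes for interferon receptors, Janus kinases and their inhibitor, 6 had negative fold changes and the median was -0.11. Socs1, which inhibits Janus kinases, was at 1.01 to 1.22 in BALB/cByJ and 1.54 to 2.08 in BALB/cJ. Its BALB/cByJ values lay below without overlap, as in 12.6% of all genes tested. Socs1 was not called (-0.39, limma adjusted p = 0.109). Ifnar1, a chain of the type I interferon receptor, was at -0.14 (limma adjusted p = 0.466), and Ifngr1, a chain of the interferon gamma receptor, at -0.12 (limma adjusted p = 0.562).

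Class II genes, which mark antigen-presenting cells such as B cells, dendritic cells and some macrophages, were low in these ventricles, and 4 of the 10 in the table were tested. Cd74, the invariant chain, was at 2.54, 1.12 and 2.24 in BALB/cByJ and at 3.2, 4.27, 8.29 and 3.35 in BALB/cJ. The strains did not overlap, with BALB/cByJ below, as in 12.6% of all genes tested. The highest value was that of BALB/cJ 3, the pool with the highest T cell marker sum, whose part in it was not tested. By strain the log2 fold change was -0.92 (limma adjusted p = 0.0708), or -1.04 without BALB/cJ 1 (limma adjusted p = 0.0443). H2-Aa, an alpha chain of class II, was at -0.63 (limma adjusted p = 0.187), whereas H2-Ab1, its beta chain, was at 0.41 (limma adjusted p = 0.153).

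**Figure D4:**
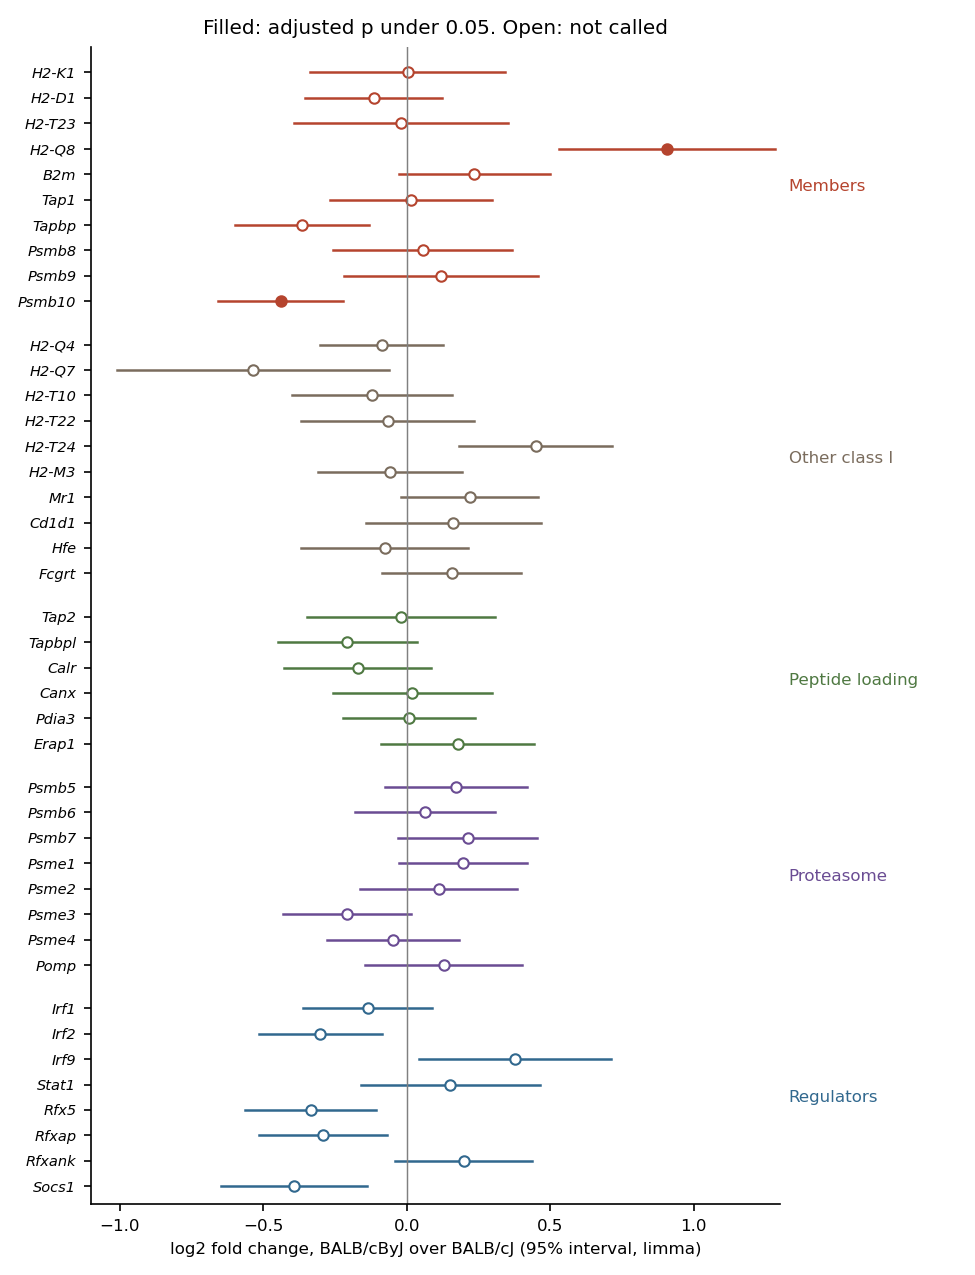
Log2 fold changes of BALB/cByJ over BALB/cJ (x axis, on log2(value + 1)) with 95% intervals from limma for the 10 members and 32 other genes of the pathway, grouped by role. Filled points have an adjusted p under 0.05. H2-Q8 (0.91) and Psmb10 (-0.44) are filled, and the intervals of H2-K1, H2-D1, H2-T23, B2m, Tap1, Psmb8 and Psmb9 include 0.

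The H2 region was also read as a whole, from the first to the last H2 gene on chromosome 17 of GRCm38.p6, a span of 3.51 Mb. With H2-Q8, it held 98 tested genes, of which H2-Q8 alone was called on the values as deposited. The others had 0 calls by limma at an adjusted p under 0.05. An unadjusted p under 0.05 was found for 21 of the 98, against 18.3% of all genes tested, and the median log2 fold change was -0.09, against -0.07 over all genes tested. Groups did not overlap for 5 of the 98 with BALB/cByJ above, against 4.33% of all genes tested, and for 14 with BALB/cByJ below, against 12.6%. These counts are near the shares over all genes. Without the members, 91 genes were tested and 20 had an unadjusted p under 0.05 from limma.

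**Figure D5:**
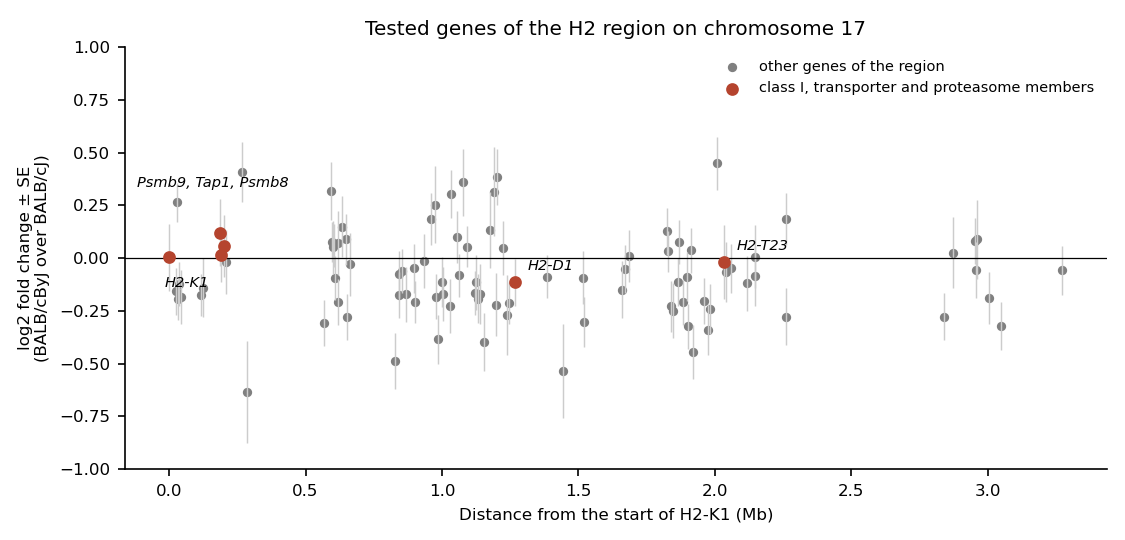
Log2 fold change of BALB/cByJ over BALB/cJ with its standard error (y axis) for the 97 tested genes placed in the H2 region of chromosome 17, by distance from the start of H2-K1 (x axis, Mb). The 6 members in the region lie between -0.12 and 0.12, and H2-Q8, which has no place on the chromosome sequence used, is not drawn.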

How the data were processed

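RNA from P4 ventricle pools was measured by RNA-Seq in 3 BALB/cByJ and 4 BALB/cJ libraries, which BGI Genomics prepared and sequenced. The authors deposited 1 table of normalized signal values for 17404 genes, rounded to 2 decimals, without naming them as FPKM or TPM. The submitters' processing notes name the build mm10. Aligner, quantification and read numbers: not given in the sources used here. Errors therefore come from the spread between pools alone. The values summed to between 570822 and 628977 in BALB/cByJ and between 543023 and 628958 in BALB/cJ.

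Values were taken as log2(value + 1), and 12715 genes with a mean of at least 0.5 entered limma (version 3.58.1, R 4.3.3). The model held strain alone and let the variance follow the mean level, and the Benjamini-Hochberg adjustment ran over all of these genes. The fit was tested on simulated data. The 10 genes and the lists were chosen with earlier results of these data known. Text names the 10 genes, called genes, up to 3 genes of smallest p from each list, and every gene of lists under 6. Chosen after their values were seen were Tap2, Nlrc5, H2-Q6, H2-Q9, Irf9, Irf1, those named for T cell and other markers, Cyth1, Ppp1r10 and Stk19. Alternatives were a pseudocount of 0.1, no filter, a mean of at least 2, quantile normalization, scaling by a mean of log ratios with 30% trimmed at each end, the replicate number as a block, the Y-linked level as a covariate, no variance trend, and leaving out each library. Leaving out BALB/cJ 3 and 4 together and summing H2-Q6 to H2-Q9 were added after the data were seen.

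Gene positions and promoter windows are those of RefSeq on GRCm38.p6, matched by gene ID. RefSeq places some H2 genes on other sequences of chromosome 17, so the H2 region was limited to the chromosome itself, with H2-Q8 added. Shared 50-base windows were counted in GENCODE M39 protein-coding transcripts, in place of a planned comparison of proteins, which was not made. Figures were drawn with matplotlib 3.10.9, and tables made with pandas 2.3.3 and numpy 2.4.6 (Python 3.11.15).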

Additional observations from a re-analysis of the deposited data

Results flagged for a closer look

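In each of 23 quantities (the 10 genes and their ratios and sums) the BALB/cJ library farthest from the others was compared with the range of its strain by Dixon's ratio. Chance alone marks about 1 in 20 such groups, and 2 were marked. The sum of Psmb5, Psmb6 and Psmb7 was 547.98 in BALB/cJ 2, above the other BALB/cJ libraries, with a gap of 0.831 of the range. The ratio of Tapbp to Tap1 was 4.91 in BALB/cJ 1, below the other BALB/cJ libraries, with a gap of 0.841 of the range. None of the 10 genes themselves was marked. The BALB/cByJ group, with 3 libraries, is too small for this comparison.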

How the results depend on the processing

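Neither H2-Q8 nor Psmb10 changed direction in any alternative run, and H2-Q8 kept its call in 11 of 17. The 6 libraries without the block are those without BALB/cJ 4, so that fit is counted again under another name. For H2-Q8 the 17 include the sum of H2-Q6 to H2-Q9. Psmb10 lost its call with no filter (limma adjusted p = 0.0946), quantile normalization (0.066), scaling (0.0903), the Y-linked covariate (0.165) and no variance trend (0.0613). The count of members called higher was 0 with no filter, a mean of at least 2 (where H2-Q8 is not tested), the Y-linked covariate, and without BALB/cJ 3 and 4, and 0 to 1 with single libraries left out. The count called lower was 0 with no filter, quantile normalization, scaling, the Y-linked covariate, no trend, the replicate block, the same 6 libraries without it, and without BALB/cJ 3 and 4, and 0 to 1 with single libraries left out. Of the other pathway genes, 1 was called higher after quantile normalization (H2-T24) and 1 lower without BALB/cJ 3 and 4 (H2-Q7), and 0 to 1 in each direction with single libraries left out. In the H2 region, 2 were called higher after quantile normalization, 0 with no filter, a mean of at least 2, the Y-linked covariate or without BALB/cJ 3 and 4, 1 lower without BALB/cJ 3 and 4, and 0 to 1 in each direction with single libraries left out (Ppp1r10 lower without BALB/cByJ 2, Stk19 lower without BALB/cJ 3).

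Genes near 0 that were not called changed sign. H2-K1 was at -0.30 without BALB/cJ 3 and 4, at 0.44 with the Y-linked covariate (no change of sign), and at -0.11 to 0.14 with single libraries left out, H2-D1 at 0.046 with the Y-linked covariate, and H2-T23 at 0.073 after quantile normalization, 0.043 after scaling, 8.9e-05 without BALB/cJ 3 and 4, and -0.23 to 0.093 with single libraries left out. Tap1 was at -0.12 without BALB/cJ 3 and 4 and at -0.087 to 0.076 with single libraries left out, Psmb8 at -0.048 with the covariate and -0.031 to 0.16 with single libraries left out, and Psmb9 at -0.044 to 0.28.

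Deviations from the strain means had correlations of -0.19, -0.26 and -0.05 between libraries with the same replicate number, for numbers 1 to 3. Those between libraries of unlike numbers lay between -0.18 and 0.39. Whether libraries of the same number share more than the number cannot be told from so few values. With the replicate block on 6 libraries, Psmb10 was at -0.48 (limma adjusted p = 0.189, 0.0642 without the block), H2-Q8 kept its call, H2-K1 was at -0.084, Tap1 at -0.05 and Psmb8 at -0.031, as without the block. All genes gave 38 higher and 20 lower with the block and 50 and 32 without it. Counts over all genes fell to 23 higher and 16 lower with no filter and 25 and 21 with the Y-linked covariate. The causes were not tested. The precision of low genes such as H2-Q8 cannot be told from the table, since its depth is unknown.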
